A study of Mus musculus with 19 samples.

Results

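miRNAs are numbered in the order in which they were found, and the names of highest number went to the last small RNAs that sequencing picked up. The set described here holds every miRNA name of the table whose number was 1000 or more, apart from miR-1193, miR-1197 and miR-3107. It came to 34 of 528 names, from 19 hairpin numbers. The rule on the number used no measured value, but the set was chosen with earlier results of these data known. Rows miR-1937a and miR-1937b differed by at most 9.6% in any library and were counted once, under miR-1937a. For 15 hairpins both arms had a name.

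A miRNA is usually cut from a hairpin by Drosha in the nucleus and by Dicer in the cytoplasm, after which 1 strand is held by an Argonaute protein such as Ago2. The held strand finds its targets mainly through its seed, the bases from position 2 to position 8. Some small RNAs reach Ago2 by other routes, and several late-named miRNAs are of that kind: a mirtron is a short intron that folds into a hairpin once it is spliced out, so that the spliceosome takes the place of Drosha, and other hairpins lie in small nucleolar RNAs (snoRNAs), in the Cajal body RNAs related to them (scaRNAs) or in tRNA-like transcripts. miRNAs of the imprinted Dlk1-Dio3 domain, which are expressed in neurons, also include late numbers.

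Sequences were taken from RefSeq on GRCm38.p6, in which 6 of the 34 names were found exactly, 27 by the number of their hairpin and 1, miR-1937a, not at all. The deposited reads were mapped to mm9, so these positions are not those of the authors' mapping. An old name such as miR-1224 or miR-1224* does not state its arm, and both arms are then printed where RefSeq holds them. Gene models are those of GENCODE M21.

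The hairpins of miR-1224 and miR-1981 are shown whole because each is exactly an intron, that of miR-1224 the 85 bases of an intron of Vwa5b2 (chr16:20604452-20604536, plus strand) and that of miR-1981 the 82 bases of an intron of Marc2 (chr1:184822407-184822488, minus strand). Capitals mark the first and last 2 bases, the GU and AG of a spliced intron.
miR-1224 hairpin: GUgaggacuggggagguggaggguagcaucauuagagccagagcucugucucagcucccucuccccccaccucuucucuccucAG
miR-1981 hairpin: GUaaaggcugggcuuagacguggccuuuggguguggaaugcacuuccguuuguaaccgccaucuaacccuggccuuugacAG

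miR-1983 is shown with its hairpin (chr13:21896918-21897049, minus strand, in no other annotated gene). Capitals in the hairpin mark GUUCGA, letters that are part of the internal promoter (B box) of tRNA genes, and those in the mature sequence mark the seed. Of 1005 RefSeq mouse hairpins, 7 (0.697%) held GUUCGA, and 1 held it on the opposite strand. This match of letters is a description only.
miR-1983 hairpin: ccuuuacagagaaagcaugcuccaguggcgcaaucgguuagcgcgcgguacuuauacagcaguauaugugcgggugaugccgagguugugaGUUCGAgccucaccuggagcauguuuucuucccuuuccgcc
miR-1983: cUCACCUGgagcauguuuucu

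Next come mature sequences from hairpins inside snoRNA or scaRNA genes, with the seed in capitals. The miR-1839 hairpin (chr7:81529916-81529988, plus strand) is annotated as a scaRNA. Those of miR-1843a (chr12:80391613-80391677, minus strand) and miR-1843b (chr1:159340358-159340423, plus strand) lie in Scarna3b and Scarna3a, in introns of Dcaf5 and Cop1. The deposited name miR-1843-5p does not tell the pair apart, and their 5p entries carry different seeds. miR-3068 lies in a snoRNA gene in an intron of Alkbh1 (chr12:87437679-87437757, minus strand). miR-3084 has 2 hairpins, in introns of Cbwd1 (chr19:24942235-24942303, minus strand) and Eif3a (chr19:60774329-60774397, minus strand), both inside snoRNA genes.
miR-1839-5p: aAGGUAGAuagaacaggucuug
miR-1843a-5p: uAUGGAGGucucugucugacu
miR-1843b-5p: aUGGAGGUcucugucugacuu
miR-3068-5p: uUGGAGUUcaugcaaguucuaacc
miR-3068-3p: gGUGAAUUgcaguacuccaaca
miR-3084-5p: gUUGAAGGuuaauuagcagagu
miR-3084-3p: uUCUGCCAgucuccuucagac

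The last group has hairpins elsewhere and carries the regional and Dlk1-Dio3 results. miR-1188 (chr12:109611822-109611941, plus strand, an intron of Rian) and miR-3072 (chr12:109747878-109747960, plus strand, in Mirg, intronic or exonic by transcript) belong to the Dlk1-Dio3 domain. miR-1298 lies in an intron of Htr2c, the gene of a serotonin receptor (chrX:147064905-147065002, plus strand), miR-3099 in an intron of Usp29 (chr7:6803587-6803670, plus strand) and miR-1198 in an intron of Gripap1 (chrX:7807101-7807221, plus strand). miR-1249 lies in 5031439G07Rik (chr15:84951526-84951623, minus strand), and miR-3475 in no other gene (chrX:140310948-140311012, plus strand). Among the sequences printed, the seed of miR-1983 is shared with miR-412-3p and that of miR-3475-5p with miR-96-3p, and the other seeds have no second RefSeq entry.
miR-3072-5p: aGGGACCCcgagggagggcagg
miR-3072-3p: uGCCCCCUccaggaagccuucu
miR-1188-5p: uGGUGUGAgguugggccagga
miR-1298-5p: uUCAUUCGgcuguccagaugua
miR-1298-3p: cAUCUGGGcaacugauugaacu
miR-3475-5p: aAAUCAUGuacccccacagagg
miR-3475-3p: uCUGGAGGcacaugguuugaa
miR-3099-5p: cCAGCUUCcuuccagcccuug
miR-3099-3p: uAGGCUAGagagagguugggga
miR-1198-5p: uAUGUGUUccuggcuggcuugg
miR-1249-3p: aCGCCCUUcccccccuucuuca

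Small RNAs of 19 to 24 nt bound to immunoprecipitated Ago2 were sequenced from mouse brain at P56 (postnatal day 56), in 19 libraries of 7 groups. Whole cerebellum (Cerebellum, n = 3, C57BL/6 & black swiss) and whole neocortex (Neocortex, n = 3, C57BL/6 & BALB/c) were precipitated with anti-Ago2, each library from 1 tissue. Anti-myc was used on the cell classes that carry a tagged Ago2: Purkinje, the output neurons of the cerebellum (n = 3, C57BL/6 & black swiss, 3 pooled tissues), Camk2a, the excitatory neurons of the neocortex (n = 3, C57BL/6 & BALB/c, 1 tissue), Gad2, its GABAergic neurons (n = 3, C57BL/6 & 129, 4 pooled tissues), and PV and SST, the parvalbumin and somatostatin subsets of GABAergic neurons (n = 2 each, C57BL/6 & 129, 4 pooled tissues). The groups are named for the genes or cells by which the classes were targeted. Antibody differed between every tagged class and its whole tissue, and so did pooling except for Camk2a. Strain and pooling differed between Gad2 and each of Neocortex, Camk2a and Purkinje, and strain between Cerebellum and Neocortex. In these comparisons the effects of antibody, pooling or strain and of cell class or region cannot be told apart. The labels do not state that replicates are separate animals, so p-values measure only the spread between these libraries, which may be technical.

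Depth was 1229834 to 14249087 miRNA reads per library, and 1 read was worth 0.0702 to 0.813 RPM (reads per 1000000 miRNA reads). Neuronal miRNAs (miR-124 and miR-128) summed to 154803 to 370755 RPM in every library. Vascular markers, of which 3 of 4 listed were found, summed to 5810 to 8178 RPM in whole tissues and 295 to 993 RPM in tagged classes, and 6 blood and microglial markers to 1786 to 4035 RPM against 11.4 to 66.1 RPM. Lower levels of vascular, blood and microglial markers thus came with every tagged class. The 2 oligodendrocyte markers (miR-219-5p and miR-338-3p) stayed near the whole-tissue level in Purkinje, at 2682 to 3186 RPM against 3278 to 3463 RPM in Cerebellum. Of these, miR-219-5p had a mean of 60.2 RPM in Purkinje and 47.2 RPM in Cerebellum. The part of any of these markers in the results below was not tested. All levels are relative to the miRNA reads of a library, and in such bulk samples fewer cells of a type and less RNA per cell cannot be told apart.

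The late-named miRNAs were rare. They held 0.0635% ± 0.0058 of miRNA reads in Cerebellum and 0.264% ± 0.0175 in Purkinje (SD, n = 3 each), the lowest and highest of the 7 groups. The shares were 0.161% ± 0.0086 in Neocortex, 0.158% ± 0.0148 in Camk2a and 0.161% ± 0.0054 in Gad2 (n = 3 each), and 0.146% ± 0.0128 in PV and 0.179% ± 0.0064 in SST (n = 2 each). The 5 neocortical groups lay close together, while the highest Cerebellum library stood at 0.0681% and the lowest Purkinje library at 0.25%. These shares are a description, with no test.

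**Figure D1:**
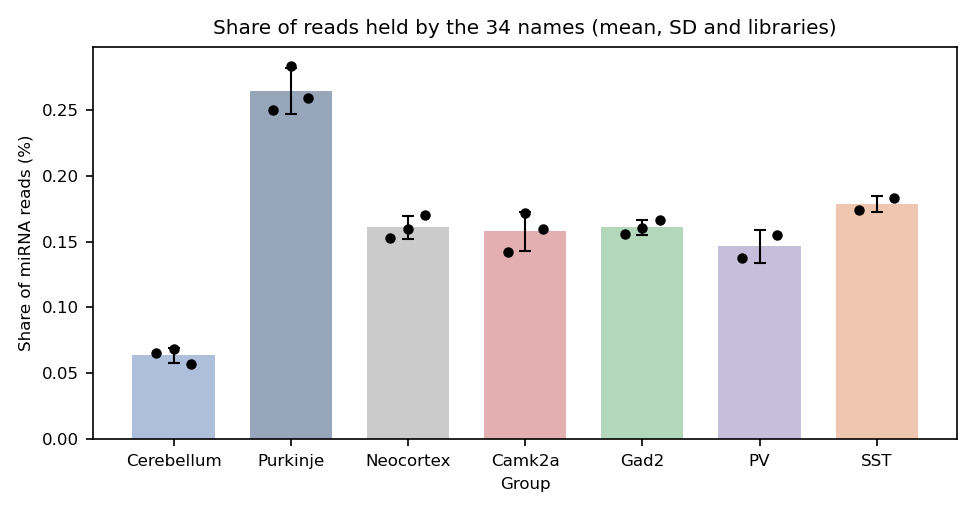
Share of each library's miRNA reads held by the 34 late-named miRNAs, in percent, by group. Bars are means, error bars 1 SD and points libraries (n = 3, or n = 2 in PV and SST). The Cerebellum libraries lie at 0.0570% to 0.0681% and the Purkinje libraries at 0.25% to 0.284%, with the neocortical groups between them.

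As the equal-weight mean of the 7 groups, the median late-named miRNA stood at 4.68 RPM, and the 489 names numbered below 1000 at a median of 25.6 RPM. Levels reached 100 RPM or more in 5 members, 10 to 100 RPM in 10, 1 to 10 RPM in 8 and under 1 RPM in 11. Among names below 1000, 165 (33.7%) reached 100 RPM, against 14.7% of the late-named. The 5 highest were miR-1839-5p at 369 RPM, then miR-1843-5p, miR-1983, miR-3068 and miR-3072. Reads were found in all 19 libraries for 19 members, and 3 never reached 3 reads in any library (the level that a count of 0 allows).

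Cerebellum libraries held reads of 22 to 26 of the 34 names and PV libraries, which were deeper, of 31 to 32. At the lowest depth of the series 20.6 to 22.3 names would be expected in Cerebellum, 23.1 to 24.4 in Purkinje, 22.8 to 23.6 in Neocortex, 23.7 to 25.4 in Camk2a and 24.4 to 25.5 in Gad2. PV, at 26.4 to 26.6, and SST, at 26 to 28.8, came out highest at that common depth. These numbers have no test.

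**Figure D2:**
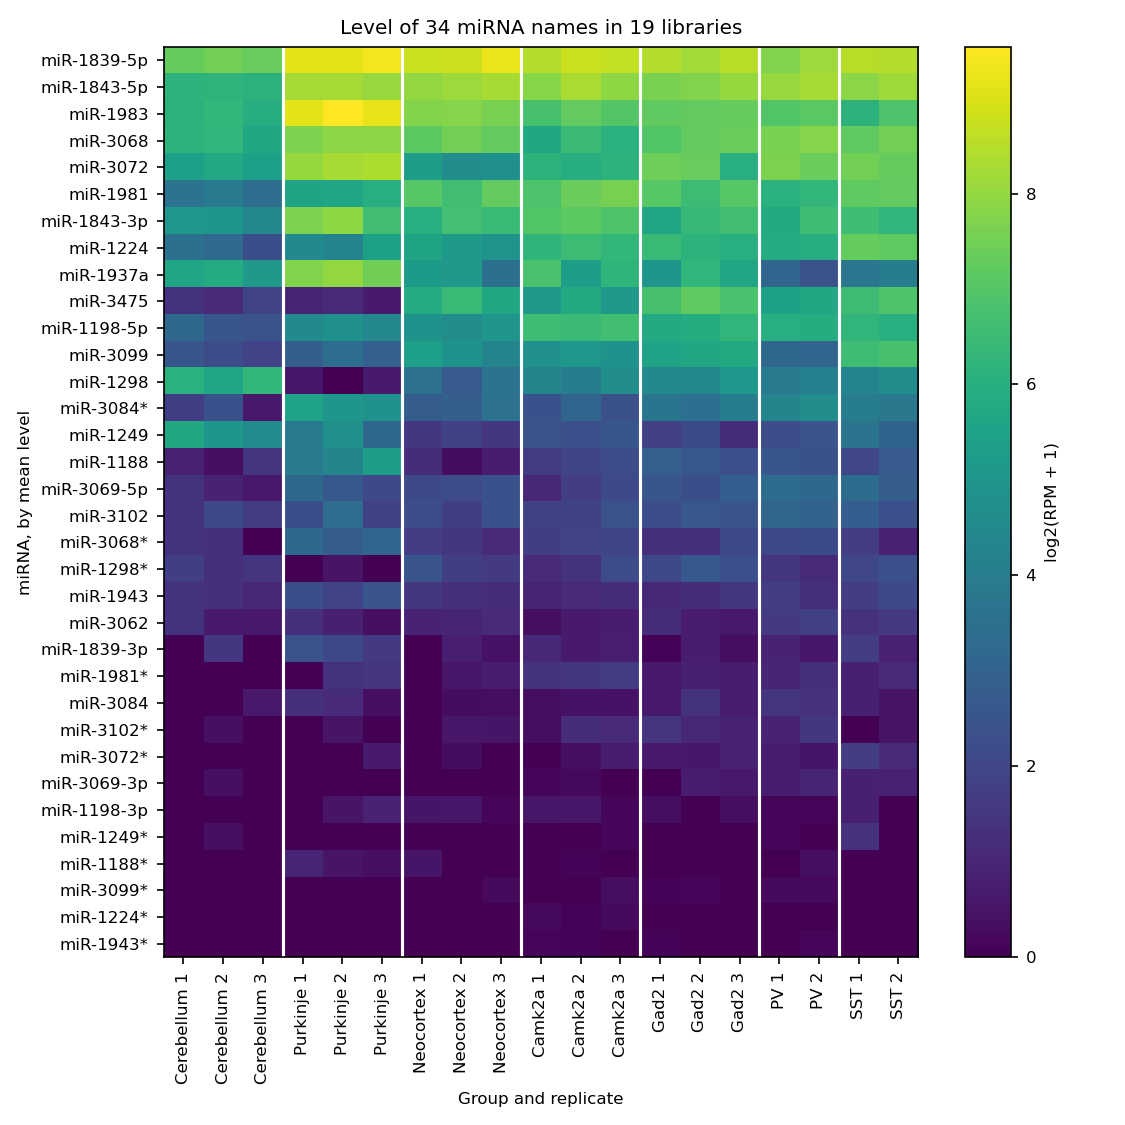
Levels of the 34 late-named miRNAs (down, by mean level) in the 19 libraries (across, by group and replicate), as log2(RPM + 1) in colour. Purkinje libraries are brightest for miR-1983 and miR-3072, miR-3475 is dark in all 6 cerebellar libraries, and most star arms lie near 0.

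A total of 33 members passed the low-value filter (at least 0.1 RPM in 2 libraries), and miR-1943* did not. Fold changes and tests are from limma on log2(RPM + 1), fitted over all 522 names tested, with Benjamini-Hochberg adjusted p under 0.05 as the call. On this scale the folds of low miRNAs are understated. Some difference among the 7 groups was called for 29 of 33 members, against 88.3% of all names tested, so being variable did not set these miRNAs apart.

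The more abundant members had their extremes mainly in the cerebellar groups. Of the 15 members at 10 RPM or more, 7 had their highest group mean in Purkinje, 2 each in Cerebellum, Camk2a and SST, and 1 each in Gad2 and PV. The lowest group mean was that of Cerebellum for 10 of the 15, of Purkinje and Neocortex for 2 each and of PV for 1. Such counts were not made over all names, so they do not show a trait particular to the late-named miRNAs.

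Purkinje libraries were compared with those of whole cerebellum. Late-named miRNAs were mostly higher in Purkinje: 21 of 33 (63.6%) were called higher, where 31.6% of all names tested were, and 3 were called lower, where 36.8% of all were. The median log2 change was 0.95 over the members and -0.13 over all names. The strongest were miR-1188, miR-3084*, miR-1983 and miR-3072, and the lowest was miR-1298.

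miR-1983, from the tRNA-like hairpin, was the clearest. It stood at 69.1, 79.3 and 60.1 RPM in Cerebellum, at 564, 741 and 589 RPM in Purkinje, at 217, 220 and 188 RPM in Neocortex, at 107, 151 and 126 RPM in Camk2a, and at 148, 149 and 153 RPM in Gad2. PV had 123 and 134 RPM and SST 68.8 and 116 RPM. All 3 Purkinje libraries lay far above the 16 others, and the 3 Neocortex libraries came next, above every library of the remaining 5 groups. It was called lower in Cerebellum than in Neocortex (log2 change -1.58, SE 0.20). The log2 change from Cerebellum to Purkinje was 3.16 (SE 0.20, 8.96-fold, adjusted p = 6.8e-12), and from Gad2 to Purkinje 2.05 (SE 0.20, 4.15-fold, adjusted p = 1.2e-08), both called in each of 14 alternatives.

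Of the 10 names whose hairpins lie inside a snoRNA or scaRNA gene, 9 were called higher in Purkinje than in Cerebellum and none lower, with a median log2 change of 1.78, where 31.6% of all names tested were called higher. Of these calls, that of miR-3084 was lost in 6 of 14 alternatives, edgeR and DESeq2 among them, and that of miR-1839-3p under DESeq2. miR-3069-3p, the tenth, had 0.304 RPM in 1 Cerebellum library and no read in the other two or in Purkinje. The 10 names are the paired arms of miR-1839, miR-1843, miR-3068, miR-3069 and miR-3084. Arms of a hairpin share a precursor, so these names do not count as 10 independent members. This grouping by host gene was made after the values had been seen, and it has no test of its own.

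miR-1839-5p had 155, 181 and 161 RPM in Cerebellum, 553, 545 and 660 RPM in Purkinje and 440, 453 and 608 RPM in Neocortex. Cerebellum lay below both without overlap, and Purkinje and Neocortex overlapped. Between Cerebellum and Purkinje its log2 change was 1.81 (SE 0.17, 3.51-fold, adjusted p = 5.5e-09). Its other arm, miR-1839-3p, was rare, at 3.21 ± 1.15 RPM in Purkinje and 0.607 ± 1.05 RPM in Cerebellum (SD, n = 3 each).

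miR-1843-5p behaved alike, with 71.6, 73.5 and 68.4 RPM in Cerebellum, 302, 301 and 268 RPM in Purkinje and 251, 283 and 308 RPM in Neocortex. Its change from Cerebellum to Purkinje was 2.01 on the log2 scale (SE 0.18, adjusted p = 1.4e-09). Only the whole cerebellum stood apart, since the 6 other groups had means of 222 to 291 RPM.

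miR-3084* was the more abundant arm of its hairpins, with 1524 reads over all libraries against 87 of miR-3084, although the star of an old name marks the arm taken to be minor. It had 2.44, 4.25 and 0.556 RPM in Cerebellum and 44.6, 31.2 and 29.0 RPM in Purkinje. PV came next with 19.4 and 24.5 RPM, and Gad2 had 12.2, 10.1 and 15.5 RPM. The Purkinje libraries lay above all others, and the log2 change from Cerebellum was 3.54 (SE 0.37, adjusted p = 2.0e-08).

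miR-3068 had 70.7, 77.1 and 51.7 RPM in Cerebellum and 205, 233 and 236 RPM in Purkinje, a log2 change of 1.76 (SE 0.22, adjusted p = 2.6e-07) with no overlap. Its minor arm miR-3068* was in every Purkinje library (8.24, 6.01 and 7.70 RPM) above every other library of the series.

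The 4 Dlk1-Dio3 members are the arms of miR-1188 and miR-3072. Of these 3 were called higher in Purkinje than in Cerebellum, where 31.6% of all names tested were. The other, miR-3072*, had 0, 0 and 0.592 RPM in Purkinje and 0 in Cerebellum and was not called. miR-3072 had 40.7, 53.2 and 40.6 RPM in Cerebellum and 259, 309 and 326 RPM in Purkinje, and miR-1188 had 0.813, 0.304 and 1.67 RPM and then 14.5, 19.2 and 39.4 RPM. Both were without overlap, with log2 changes of 2.71 (SE 0.28, adjusted p = 2.1e-08) and 3.66 (SE 0.36, adjusted p = 8.1e-09). miR-1188*, with no read in Cerebellum and 4 in all of Purkinje, lost its call under edgeR, under DESeq2 and without Purkinje replicate 1.

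miR-1937a rose with them, from 48.0, 57.4 and 33.4 RPM in Cerebellum to 209, 253 and 178 RPM in Purkinje (log2 change 2.2, SE 0.41, adjusted p = 7.1e-05). Of both intron-derived miRNAs, miR-1981 went from 11.4, 13.7 and 10.0 RPM to 46.0, 47.2 and 61.6 RPM (log2 change 2.05, SE 0.23, adjusted p = 8.2e-08). miR-1224 went from 10.6, 8.5 and 3.89 RPM to 22.8, 18.8 and 42.3 RPM (log2 change 1.75, SE 0.30, adjusted p = 2.9e-05). Neither overlapped between these groups, and for both the Purkinje mean stayed below those of all 5 neocortical groups.

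**Figure D3:**
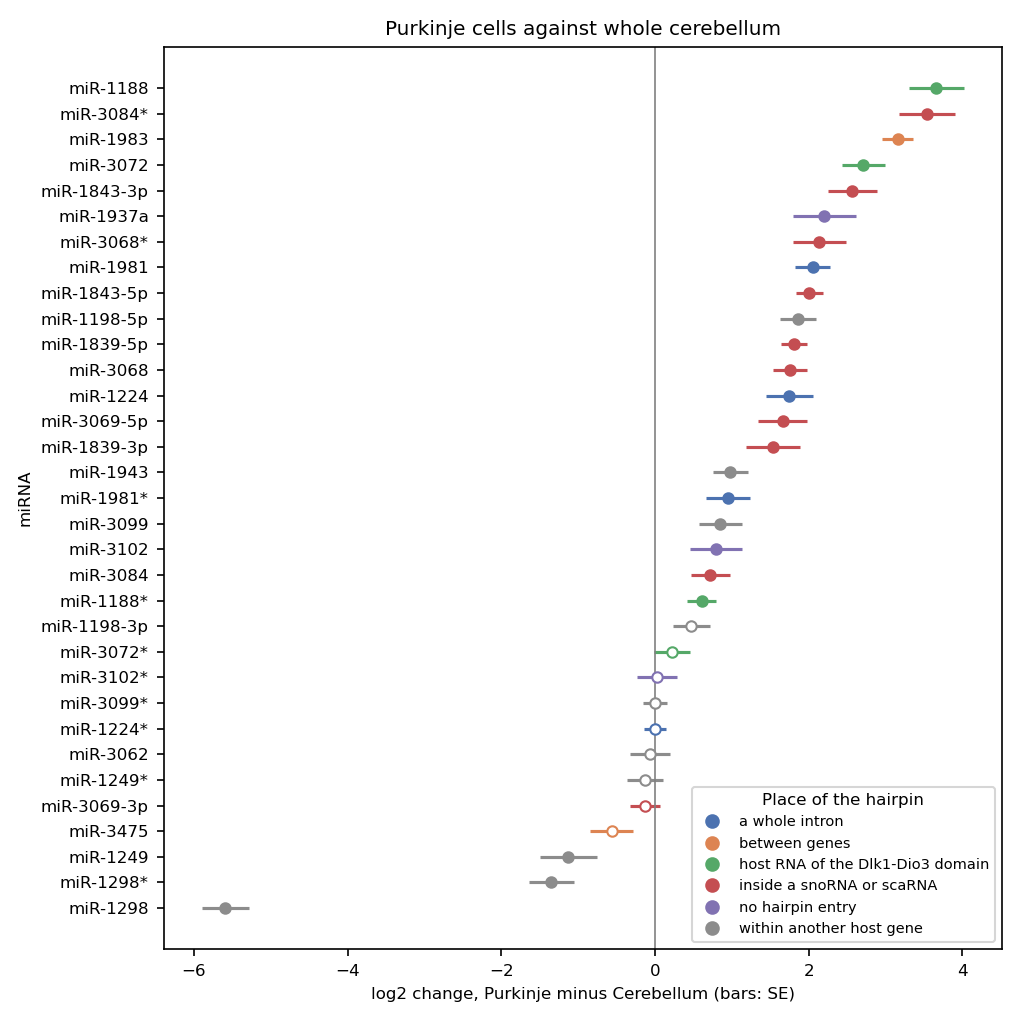
Change from Cerebellum to Purkinje (log2, on the RPM + 1 scale; bars are the SE) for the 33 members tested, coloured by the place of the hairpin. Filled points were called at an adjusted p under 0.05. Of 10 members inside a snoRNA or scaRNA gene, which are paired arms of shared hairpins, 9 are filled and lie above 0. miR-1298 lies at -5.59.

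miR-1298 went the other way. It had 66.7, 47.7 and 78.4 RPM in Cerebellum and 0.485, 0 and 0.592 RPM in Purkinje, which is 380 reads against 3. The ratio of reads per depth was 159 (95% exact interval 54.0 to 775, covering counting error only). By limma the log2 change was -5.59 (SE 0.31, adjusted p = 7.1e-13), and its minor arm miR-1298* was also called lower (1.88 ± 0.494 against 0.133 ± 0.231 RPM, SD, n = 3 each).

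The ependymal and choroid plexus markers moved with it. Of 4 listed, 3 were found (miR-204, miR-34b-3p and miR-34c), and they summed to 1322 to 1805 RPM in Cerebellum, 9.17 to 15.5 RPM in Purkinje and 61.7 to 90.5 RPM in Neocortex. miR-34b-3p was at 0 in Purkinje. Their part in the level of miR-1298 was not tested. miR-1249 was lower in Purkinje as well (50.4, 31.0 and 23.4 against 14.5, 26.4 and 7.99 RPM), but the libraries overlapped and the call was lost without Cerebellum replicate 1 or without Purkinje replicate 3 (adjusted p up to 0.079 over 14 alternatives).

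Over the whole series, all 3 Purkinje libraries lay above the 16 others for 6 of 33 members (18.2%), where 6.70% of all names did so. These were miR-1188, miR-1937a, miR-1983, miR-3068*, miR-3072 and miR-3084*. They lay below all others for 3 members (miR-1298, miR-1298* and miR-3475), 9.09% against 10.9% of all names.

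Whole cerebellum was next set against whole neocortex, to show which late-named miRNAs differ by region. In Cerebellum 12 of 33 members were called lower, where 37.2% of all names were, and 2 were called higher, where 22.4% of all were. The share called lower (36.4%) was thus near that of all names. The lowest were miR-3475, miR-1981, miR-3099 and miR-1224, and the 2 higher ones were miR-1249 and miR-1298. All 14 calls were made in each of 14 alternatives, and with values divided by TMM factors 4 members were higher and 12 lower.

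miR-3475 was found almost wholly in the neocortical libraries. It had 1.63, 1.22 and 2.78 RPM in Cerebellum and 0.969, 1.20 and 0.592 RPM in Purkinje. Neocortex had 56.8, 84.2 and 49.7 RPM, Camk2a 34.2, 56.5 and 34.4 RPM, and Gad2 108, 148 and 109 RPM. PV had 41.9 and 50.7 RPM and SST 91.5 and 118 RPM. No cerebellar library reached 3 RPM and no neocortical one fell under 34 RPM.

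Between the whole tissues its log2 change was -4.49 (SE 0.28, adjusted p = 1.5e-11), from 11 reads in Cerebellum and 1004 in Neocortex, a ratio per depth of 33.9 (95% exact interval 18.8 to 68.0). Between Purkinje and Gad2 it was -5.99 (SE 0.28, adjusted p = 9.8e-14), from 7 and 3392 reads, a ratio of 134 (65.1 to 334).

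miR-1981, the Marc2 intron, had 133, 97.6 and 152 RPM in Neocortex and 116, 162 and 193 RPM in Camk2a against 10.0 to 13.7 RPM in Cerebellum (log2 change between the tissues -3.33, SE 0.23, adjusted p = 7.7e-11). The 6 cerebellar libraries lay below all 13 neocortical ones for miR-1981 and miR-3475 only, 2 of 33 members where 6.32% of all names did so. No member lay above in all 6, where 2.3% of all names did.

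miR-3099 had 4.88, 3.65 and 2.78 RPM in Cerebellum and 40.5, 28.8 and 18.5 RPM in Neocortex, without overlap (log2 change -2.62, SE 0.28, adjusted p = 5.8e-08). Purkinje, at 6.30, 10.0 and 6.51 RPM, was called higher than Cerebellum by only 0.85 on the log2 scale, a call lost with a pseudocount of 10 RPM and without Cerebellum replicate 3 or Purkinje replicate 2. The hairpin of miR-1224 gave 47.0, 34.9 and 29.8 RPM in Neocortex, above all 6 cerebellar libraries but Purkinje replicate 3 (log2 change from Neocortex to Cerebellum -2.21, SE 0.30, adjusted p = 2.4e-06).

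miR-1249 was the highest of the cerebellar miRNAs by fold, with 50.4, 31.0 and 23.4 RPM in Cerebellum and 1.86, 2.68 and 1.85 RPM in Neocortex (log2 change 3.46, SE 0.37, adjusted p = 5.5e-08). For miR-1298 the Neocortex libraries had 10.7, 5.61 and 11.4 RPM, all below Cerebellum (log2 change 2.70, SE 0.31, adjusted p = 1.9e-07). The 2 differ within the cerebellum, since Purkinje kept 7.99 to 26.4 RPM of miR-1249 and almost no miR-1298.

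**Figure D4:**
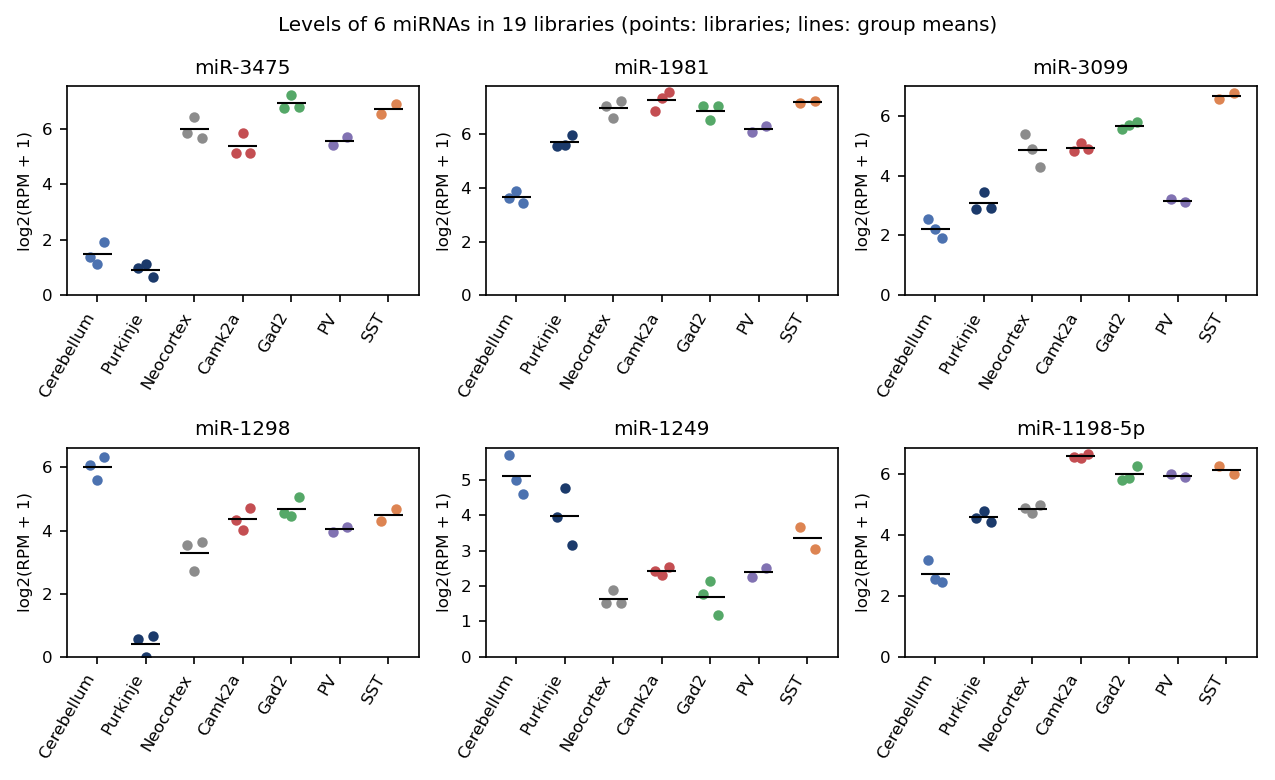
Levels of 6 late-named miRNAs by group, as log2(RPM + 1), with points for libraries and lines for group means. miR-3475 lies at under 3 RPM in both cerebellar groups, miR-1298 drops to under 1 RPM in Purkinje only, and miR-3099 is low in PV as in the cerebellar groups.

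Among members inside snoRNA or scaRNA genes, 6 of 10 were called lower in Cerebellum than in Neocortex and none higher (median log2 change -1.25). Over all names 37.2% were lower and 22.4% higher. These 10 members are paired arms of shared hairpins and are not independent. From Neocortex to Camk2a 1 of 10 was lower (29.7% of all names), and from Neocortex to Gad2 1 was higher and 1 lower (22.0% and 26.2% of all). Against Camk2a 3 were higher in Gad2 (21.6% of all), and between PV and SST none was called, where 4.02% of all were higher and 27.0% lower. miRNAs below 1000 that are also made by other routes were not all alike. miR-320 had 3896 ± 558 RPM in Cerebellum, 1722 ± 625 RPM in Purkinje and 716 ± 244 RPM in Neocortex, and the mirtron miR-877 4.63 ± 0.814, 24.9 ± 10.2 and 7.83 ± 0.53 RPM (SD, n = 3 each).

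Purkinje and Gad2 libraries compare GABAergic neurons of the cerebellum and of the neocortex, both made with anti-myc. The 2 oligodendrocyte markers moved with this comparison, at 2682 to 3186 RPM in Purkinje and 624 to 692 RPM in Gad2 (3278 to 3463 RPM in Cerebellum and 1953 to 3162 RPM in Neocortex), and their part in the results was not tested. In Purkinje 13 of 33 members were called higher (21.3% of all names were) and 9 lower (34.1% of all were). Higher were miR-1249, miR-1937a, miR-1983 and miR-1188 with log2 changes of 2.26, 2.1, 2.05 and 1.92. miR-3475, miR-1298, miR-3099 and miR-1224 were lower with -5.99, -4.28, -2.59 and -1.43. These 8 were called in each of 14 alternatives, whereas the lower-level calls of miR-1188* and miR-3069-3p and that of miR-3068 (log2 0.62) were lost in some.

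Among neocortical groups, Camk2a neurons were compared with the whole neocortex. Here 7 of 33 members were called higher (17.8% of all names were) and 2 lower (29.7% of all were), and 9 were higher and 1 lower once values were divided by TMM factors. miR-1198-5p, whose gene Gripap1 encodes a protein of endosomes in neurons, was the foremost, at 28.9, 25.4 and 30.6 RPM in Neocortex and 93.4, 90.5 and 100.4 RPM in Camk2a. The groups were far apart (log2 change 1.71, SE 0.23, adjusted p = 4.1e-06), and no library of any other group reached the Camk2a level.

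Also higher in Camk2a than in Neocortex were miR-1937a (log2 1.51, SE 0.41), miR-3072 (1.17, SE 0.28) and miR-1224 (1.13, SE 0.30). The call of miR-1937a rested on the low Neocortex replicate 3 (10.6 RPM, against 35.8 and 34.6 RPM in the others) and was lost without it. miR-3068 was lower in Camk2a, with 50.4, 90.4 and 66.8 RPM against 140, 179 and 149 RPM (log2 change -1.19, SE 0.22, adjusted p = 0.00013). miR-1983 was also lower, by -0.71 on the log2 scale (SE 0.20), but not with TMM scaling or edgeR.

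For Gad2 neurons against the whole neocortex, 10 of 33 members were called higher (22.0% of all names were) and 1 lower (26.2% of all were). miR-3072 had 38.6, 24.6 and 26.4 RPM in Neocortex and 172, 158 and 63.3 RPM in Gad2, where replicate 3 lay below the others but still above Neocortex (log2 change 2.0, SE 0.28, adjusted p = 4.4e-06). miR-1188 had 1.40, 0.244 and 0.648 RPM and then 6.60, 5.13 and 4.01 RPM (log2 change 1.86, SE 0.36). miR-1298 (1.39, SE 0.31) and miR-1198-5p (1.13, SE 0.23) were higher as well. These 4 held in each of 14 alternatives.

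miR-1839-5p was the 1 lower member, at 335 ± 32.3 RPM in Gad2 and 500 ± 93.6 RPM in Neocortex (SD, n = 3 each). Its call was lost with TMM scaling, with edgeR, and without Neocortex replicate 3 or Gad2 replicate 2. Leaving out either of those libraries reduced the calls of this comparison from 11 to 7. A limma fit with the replicate number as a block over all 7 groups was also made. With it, miR-1983 (log2 change -0.47, adjusted p = 0.032), miR-1937a (1.00, adjusted p = 0.045) and miR-3069-3p (adjusted p = 0.046) were called too. None of them was called without the block.

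Gad2 and Camk2a libraries are the inhibitory and the excitatory class of the same region. In Gad2 7 of 33 members were called higher (21.6% of all names were) and 1 lower (17.4% of all were). miR-3475 had 108 to 148 RPM in Gad2 and 34.2 to 56.5 RPM in Camk2a (log2 change 1.54, SE 0.28, adjusted p = 0.00015). miR-3068 had 122, 150 and 167 RPM in Gad2 against 50.4, 90.4 and 66.8 RPM (log2 change 1.10, SE 0.22, adjusted p = 0.0003). Only these 2 of the 8 calls were made in each of 14 alternatives, and leaving out any 1 library left 3 to 5 calls. With TMM scaling 4 members were higher and 3 lower, and with DESeq2 5 and 6.

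PV and SST neurons, subsets of the GABAergic class, differed most in miR-3099. It had 8.29 and 7.61 RPM in PV and 93.1 and 106 RPM in SST, with 45.7, 50.3 and 53.7 RPM in Gad2 and 27.3, 33.3 and 28.5 RPM in Camk2a. PV lay at the level of the Purkinje libraries (6.30 to 10.0 RPM) and SST above every other library of the series. The log2 change was -3.49 (SE 0.34, 11.2-fold, adjusted p = 3.1e-08), and the call was made in each of 12 alternatives, by -2.87 with TMM scaling.

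In PV 5 of 33 members were called lower (27.0% of all names were), miR-3099 among them, and 1, miR-3102*, higher (4.02% of all were). miR-1224 had 57.8 and 61.1 RPM in PV and 154 and 144 RPM in SST (log2 change -1.31, SE 0.37), miR-3475 46.3 ± 6.23 against 104.7 ± 18.7 RPM (-1.16, SE 0.35), and miR-1981 73.2 ± 8.66 against 146.8 ± 6.39 RPM (-1.0, SE 0.29; SD, n = 2 each). The last, miR-3072*, lay under 3 RPM in all 4 libraries.

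The SST libraries stood apart in 3 marker lists. In PV and SST, vascular markers summed to 295 to 330 and 734 to 766 RPM. Ependymal and choroid markers summed to 86.2 to 105.6 and 365 to 371 RPM, and neuronal miRNAs to 323613 to 364520 and 154803 to 157938 RPM. Members of a list were not all alike. miR-124 had 342179 RPM in PV and 154026 RPM in SST, but miR-128 had 1888 and 2344 RPM. miR-204 had 7.55 and 128 RPM, miR-34c 85.5 and 237.6 RPM, and miR-34b-3p 2.88 and 2.97 RPM. For miR-34c the Gad2 mean (61.3 RPM) was also near that of Cerebellum (59.7 RPM). The part of these markers in these changes was not tested.

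Apart from miR-3099, the calls of members lower in PV and the direction of the set rested on the scaling. The higher call, that of miR-3102*, was made in 7 of 12 alternatives. The SST libraries had the largest TMM factors (1.528 and 1.416), and dividing by them moved the median log2 change of all names from -0.34 to 0.07. With TMM 6 members were called higher in PV and 1, miR-3099, lower. miR-1983 (log2 1.15), miR-3068 (0.98) and miR-1843-5p (0.80) were then among the higher ones, whereas miR-1224, miR-3475, miR-1981 and miR-3072* were no longer called. Without PV replicate 1 there were 2 calls in all, and without SST replicate 1 there were 3; each such fit leaves 1 library in a group, which is assumed to vary like the other groups.

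**Figure D5:**
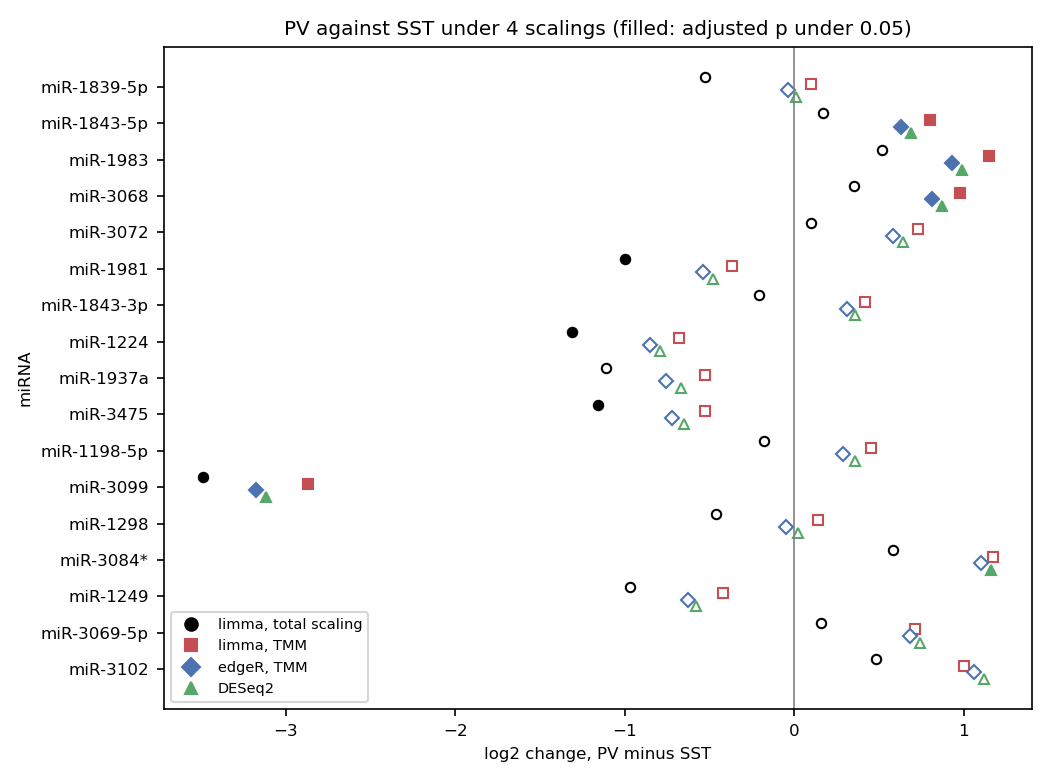
Change between PV and SST (log2, PV minus SST) of members with at least 5 RPM in PV or SST, under 4 combinations of test and scaling. Filled symbols were called at an adjusted p under 0.05. miR-3099 is filled in all 4, at -2.87 to -3.49, while miR-1224, miR-3475 and miR-1981 are filled only with scaling to the total.

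The changes from whole tissue to tagged cells differed between regions. Between the change from Cerebellum to Purkinje and that from Neocortex to Gad2, 16 of 33 members differed (48.5%), near the 47.3% of all names tested. The Purkinje change was called the larger for 13 of 33 (39.4%), with miR-1983 in front, where it was for 133 of all 522 names. It was called the smaller for 3 (9.09%), where it was for 114 of all 522. This test was added after the values had been seen.

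Both arms of a hairpin are made in equal number, and Ago2 keeps mostly 1 of them. Over all libraries the minor arm took 27.1% of the reads of miR-1843, 17.2% of miR-3102, 10.8% of miR-1298, and 5.81% or less for the other 12 hairpins with 2 named arms. miR-1843-3p took 37.2% ± 9.29 in Purkinje and 32.8% ± 2.23 in Camk2a, and 22.6% ± 3.41 in Neocortex (SD, n = 3 each). The Camk2a libraries (30.5% to 34.9%) lay above those of Neocortex (19.6% to 26.3%), and Purkinje (26.7% to 44.6%) overlapped Camk2a.

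For miR-1298 the minor arm took 2.90% ± 0.741 in Cerebellum, from 11 of its reads, and 25.3% ± 8.74 in Neocortex, from 42 (SD, n = 3 each), without overlap. miR-3068* took 3.94% ± 0.822 in Camk2a and 1.17% ± 0.424 in Neocortex, from 92 and 26 reads. Camk2a thus had less of the major arm and a larger share of the minor one. These arm shares are descriptions of a few libraries, with no test.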

How the data were processed

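Per the file headers the deposited signal is miRNA reads per 1000000 miRNA reads, but each of the 19 columns totals 10000000, and RPM is therefore the deposited value divided by 10. Mapping was to mm9 with Bowtie, per the submitters' processing notes (version: not given in the sources used here). Whole reads were recovered in all 19 columns (to within 0.02 of a read, for 100% of values), which gave the depth of each library. Replicates differed by far more than counting error (chi-square per degree of freedom 34.2 to 693 over 17 pairs).

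Groups came from the sample titles. The test was limma 3.58.1 (R 4.3.3) with a trend on log2(RPM + 1), in 1 fit of 7 group means over 522 names with at least 0.1 RPM in 2 libraries, and Benjamini-Hochberg adjustment over those names in each comparison. The pseudocount was 1 RPM because a read is worth up to 0.813 RPM. Alternatives were other pseudocounts and filters, TMM factors, edgeR 4.0.16 and DESeq2 1.42.0 on the recovered reads, a replicate block, and each library left out. Each tool was also run on simulated counts with a fixed dispersion and changes in Purkinje only. That setting differs from these libraries, so it does not tell how well the calls made here hold. The members and lists were chosen with earlier results of these data known. Named miRNAs were the 10 of highest mean level and up to 4 called in each direction per comparison. Those calls needed groups without overlap and at least 5 RPM in the higher. Their other arms were added, and so were the arms of miR-1188, miR-1224, miR-1839 and miR-1983, from the Dlk1-Dio3 and non-canonical names. The snoRNA or scaRNA names miR-3069-5p and miR-3069-3p were not among the named miRNAs. Markers were vascular, blood and microglial, oligodendrocyte, ependymal and choroid, and neuronal. The oligodendrocyte markers were miR-219-5p and miR-338-3p, which summed to 616 to 746 RPM in Camk2a, 865 to 1076 RPM in PV and 938 to 1159 RPM in SST. The main fit used no pairing. The replicate block gave each replicate number an effect shared by all 19 libraries, and so did not pair Gad2 with Neocortex alone. Deviations from the group means correlated in every same-numbered pair of Gad2 and Neocortex (r = 0.34, 0.28 and 0.21). That link was seen in the data and is not stated in the labels. Intervals and limits reflect counting error alone, because amplified reads carry no molecular identifiers and need not be independent molecules.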

Additional observations from a re-analysis of the deposited data

Results flagged for a closer look

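For 16 of 33 late-named miRNAs the change from whole cerebellum to Purkinje cells differed from the change from whole neocortex to Gad2 neurons (limma, interaction of both contrasts, adjusted p under 0.05, 47.3% of all names tested). The test was added after the values had been seen, and each value below is the first log2 change minus the second.

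miR-1983, which was higher in Purkinje than in Cerebellum and, between Gad2 and Neocortex, called with the replicate block (log2 change -0.47, adjusted p = 0.032) but not without it (adjusted p = 0.057; 0.032 to 0.20 over the alternatives), differed by 3.63 (adjusted p = 7.2e-10). Of 10 members with hairpins in snoRNA or scaRNA genes, miR-3084 (0.01, adjusted p = 0.98) and miR-3069-3p (-0.59, adjusted p = 0.081) were not called, and the others differed by 2.87 (miR-3084*), 2.72 (miR-1843-3p), 2.38 (miR-1839-5p), 2.36 (miR-1843-5p), 2.04 (miR-3068*), 1.85 (miR-3068), 1.55 (miR-1839-3p) and 1.34 (miR-3069-5p). miR-1981, the whole intron of Marc2, differed by 2.14. In the Dlk1-Dio3 domain miR-1188 differed by 1.80. miR-1188* differed by 0.80, on 2, 1 and 1 reads in the Purkinje libraries and none in Cerebellum or Gad2. Its call between Purkinje and Cerebellum was lost under edgeR and DESeq2. miR-1943, in an intron of Tmem184b, differed by 1.04.

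miR-1298 had the opposite sign in the regions, lower in Purkinje than in Cerebellum and higher in Gad2 than in Neocortex, and differed by -6.98 (adjusted p = 3.9e-11). Its other arm, miR-1298*, differed by -1.73, and miR-3475 by -1.50. miR-1839-5p also had called changes of opposite sign. The ependymal and choroid markers, high in Cerebellum and low in Purkinje, moved with miR-1298 in that contrast only. Between Neocortex and Gad2 their sums overlapped, at 61.7 to 90.5 and 76.2 to 92.4 RPM. There miR-204 was lower in Gad2 (58.4 and 20.0 RPM) and miR-34c higher (13.8 and 61.3 RPM), with miR-34b-3p at 1.41 and 1.99 RPM. The part of these markers in the level of miR-1298 was not tested.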

How the results depend on the processing

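No named result changed its direction where it was called. Of 84 calls of 27 named miRNAs, 57 were kept in every alternative and 27 were lost in some, 105 of 1162 recomputed values. Counts of called members stayed within 1.5 times the reported ones under every pseudocount, filter, scaling and tool but 1. Between Gad2 and Camk2a a pseudocount of 0.1 RPM gave 4 calls and not 8. These totals do not show which members were called or in which direction. In PV 1 member was higher and 5 lower than in SST, but 6 and 1 with TMM scaling. In Gad2 7 were higher and 1 lower than in Camk2a, but 5 and 6 with DESeq2. Leaving out 1 library gave 7 to 12 calls between Gad2 and Neocortex, 3 to 5 between Gad2 and Camk2a and 2 to 6 between PV and SST, and the cause was not tested. Elsewhere it gave 14 to 16 calls between Cerebellum and Neocortex, 21 to 24 between Purkinje and Cerebellum, 7 to 10 between Camk2a and Neocortex and 20 to 22 between Purkinje and Gad2.

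With the replicate block, calls were 14 and not 11 between Gad2 and Neocortex. For the other comparisons the labels do not say whether same-numbered libraries are linked (r = -0.27 to 0.19). The block gave 14 calls for Cerebellum with Neocortex, 23 for Purkinje with Cerebellum and 9 for Camk2a with Neocortex. Without it these were 14, 24 and 9. It gave 8 for Gad2 with Camk2a, 7 for PV with SST and 23 for Purkinje with Gad2, against 8, 6 and 22 without it. Depth limits the rarest names: the limit of 3 reads equals 0.211 to 2.44 RPM by library, and 11 of 34 members averaged under 1 RPM.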
